A study of Mus musculus with 10 samples.

Results

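Of 2085 wells of mouse small-intestinal crypt cells used here, 64 were Paneth cell wells: 40 of 1615 sorted wells and 24 of 470 picked wells. A used well held at least 1000 transcripts of endogenous genes. A well was counted as a Paneth cell well where the alpha-defensin genes with a Defa symbol, the pentraxin Mptx2, the angiogenin Ang4 and the defensin gene Gm14851, called the rule genes from here on, made up at least 5% of its transcripts. The values of the rule genes are described below without a test. Tests were run on genes outside the rule and on the size of wells, the latter with the rule genes counted and with them left out.

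Paneth cells sit at the base of the crypts of Lieberkühn, between the stem cells, and fill large granules with antimicrobial proteins that they release into the crypt lumen. Their alpha-defensins are made as precursors with a pro-segment, which the protease Mmp7 removes in the mouse. Paneth cells also make signals for the neighbouring stem cells, such as Wnt3, the growth factor Egf and the Notch ligand Dll4.

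CEL-seq2, which tags each captured molecule with a random barcode, was run on 384-well plates. All 10 libraries came from C57Bl/6 mice and no treatment is labelled. Per the labels, 7 libraries hold single cells sorted after dissociation of crypts (sorted replicates 1 to 7), and 3 hold doublets or triplets of cells that were picked by mouth pipette after a mild dissociation (picked replicates 1 to 3). A picked Paneth cell well may therefore hold a partner cell, and fewer Paneth cells in such a well and less RNA per Paneth cell cannot be told apart. The labels give no sort gate, age or animal. P-values therefore cover the variation among these libraries only, and part of it may be technical.

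Several facts of the libraries touch every comparison of picked with sorted wells. Each picked library carries a different experiment code with a shared prefix, and the sorted libraries carry codes with 2 other prefixes. Sorted replicates 6 and 7 carry the second of these. Goblet wells, defined below, were 174 of 264 used wells in sorted replicate 6 and 98 of 261 in sorted replicate 7. In sorted replicates 1 to 5 they were 29 to 36 of 189 to 233 used wells per library. Goblet wells are among the other wells that Paneth cell wells are compared with. The labels do not say whether the picked codes belong to 1 experiment. Xist was at 120 to 155 CPM in the picked libraries and at most 0.978 CPM in the sorted ones. The Y-linked Ddx3y was at 60.7 to 100.2 CPM in sorted and at 0 in picked libraries. Animal sex, experiment code and dissociation therefore cannot be told apart here. Wells 1 to 72 of picked replicate 1 were left out by the definition used; 31 of them had at least 1000 transcripts, and 0 of these 31 reached the 5%, the highest share being 0.411%. Sorted replicate 3 had 1 Paneth cell well and entered no test. Well barcodes are plate positions from 1 to 384 that every library shares by design, and no doublet caller was run.

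The genes that carry the choice are near copies of each other, which sets how far a count can be given to 1 gene. In the GENCODE annotation of GRCm38, 19 alpha-defensin genes of the tables lie on chromosome 8 between 21025545 and 21735471, each with 2 exons. The coding sequences of 3 of them follow, because the results below turn on how transcripts divide between them. Defa24 (chr8:21734494-21735471, plus strand), Defa17 (chr8:21655780-21656735, plus strand) and Gm15284 (chr8:21134642-21135598, plus strand; RefSeq calls it Defa30) have 282 coding bases. Capitals mark the bases that differ from Defa24 in an alignment of the whole coding sequence.
Defa24: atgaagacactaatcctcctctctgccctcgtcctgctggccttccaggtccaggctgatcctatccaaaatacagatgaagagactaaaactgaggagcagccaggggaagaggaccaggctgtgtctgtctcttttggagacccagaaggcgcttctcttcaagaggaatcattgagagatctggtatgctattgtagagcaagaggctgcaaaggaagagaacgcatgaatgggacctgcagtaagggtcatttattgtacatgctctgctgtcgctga
Defa17: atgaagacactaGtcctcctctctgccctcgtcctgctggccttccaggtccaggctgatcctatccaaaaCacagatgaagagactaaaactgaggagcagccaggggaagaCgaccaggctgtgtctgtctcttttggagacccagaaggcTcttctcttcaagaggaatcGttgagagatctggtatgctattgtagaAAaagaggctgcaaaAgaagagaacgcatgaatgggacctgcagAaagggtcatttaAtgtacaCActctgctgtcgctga
Gm15284: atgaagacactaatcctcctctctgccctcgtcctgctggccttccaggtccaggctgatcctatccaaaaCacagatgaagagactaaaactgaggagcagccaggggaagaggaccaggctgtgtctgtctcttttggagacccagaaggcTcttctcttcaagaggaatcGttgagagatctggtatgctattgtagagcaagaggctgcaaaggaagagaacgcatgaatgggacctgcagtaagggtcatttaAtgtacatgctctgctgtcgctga

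Defa17 differs from Defa24 at 12 bases (95.7% identity) and Gm15284 at 4 (98.6%). CEL-seq2 reads the 3′ end of transcripts. Over the last 100 transcript bases Defa17 matches Defa24 at 94.0% and Gm15284 matches it at 96.0%, and 11 of the alpha-defensin genes have another at 95% or more there. Reads of these copies may be split or misassigned, so values of single alpha-defensin genes are uncertain.

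The promoters of several rule genes share a short sequence. The 250 bases before the start of Defa22 (chr8:21162027-21162276, plus strand, GRCm38.p6, RefSeq) are printed because this window holds the core CTTTGAT, searched on both strands and shown in capitals, which is the core recognised by the TCF/LEF factors of the Wnt pathway.
Defa22 promoter: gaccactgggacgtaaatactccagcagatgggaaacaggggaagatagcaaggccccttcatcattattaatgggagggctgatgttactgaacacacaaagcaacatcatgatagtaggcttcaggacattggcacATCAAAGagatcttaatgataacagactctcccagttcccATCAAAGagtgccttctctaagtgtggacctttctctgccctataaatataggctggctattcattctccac
The matches begin 112 and 72 bases before the start, and the windows of Defa20 and Defa21 hold matches at the same distances. The windows of Defa20, Defa21 and Defa22 are near copies of each other, so their matches are not separate occurrences. Of the 6 rule genes with a promoter in the table, 4 held the core (Defa20, Defa21, Defa22 and Defa23), and Ang4 and Mptx2 did not. Over the same 250 bases before the start, the core was present in 1053 of 32851 promoters of the table (3.21%). It was also present in 4 of 6 promoters of defensin genes outside the rule and in 3 of 20 promoters of the secreted Paneth cell products listed (Mmp7, Reg3a and Reg3g). Counts that include copied promoters cannot be read against the share over all promoters. A match is a description of the sequence and not a measured site.

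In sorted Paneth cell wells the rule genes made up 5.22% to 28.1% of transcripts (median 18.5%), and in picked Paneth cell wells 5.45% to 41.3% (median 22.8%). The wells nearest above the threshold had 5.22%, 5.35% and 5.45%, and those nearest below it 4.98%, 4.45% and 4.44%. There were 14 wells between 5% and 10% (6 sorted, 8 picked), 26 other wells between 2% and 5%, and 38 between 1% and 2%. Of the 6 sorted ones, 2 were in sorted replicate 6 and 3 in sorted replicate 7. In the other wells the median share was 0.00263% (sorted) and 0.0876% (picked). The share of other wells without a single transcript of a rule gene was 48.9% in sorted and 23.8% in picked libraries. In picked replicate 1 it was 0 of 83 wells, with a median share of 0.47%, so that this library had the highest background of Paneth cell transcripts.

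Paneth cell wells were 2.48% of sorted wells (exact 95% interval 1.78% to 3.36%) and 5.11% of picked wells (3.30% to 7.50%); the intervals cover counting error only, and the shares follow from the rule. By library they were 7, 8, 1, 9, 6, 3 and 6 wells in sorted replicates 1 to 7, and 8 in each picked replicate. Sorted replicate 3 had the lowest share, 0.43% of its wells, and picked replicate 1 the highest, 8.79%. Paneth cell wells held 1067 to 22289 transcripts in sorted libraries (median 4629) and 1005 to 109139 in picked libraries (median 6011). The deepest, in picked replicate 1, held 37.7% of that library's Paneth cell transcripts. Summed, the Paneth cell wells of a tested library held 18580 to 73133 transcripts in sorted libraries and 289162, 81009 and 34014 in picked replicates 1 to 3.

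The label was checked against markers that did not choose the wells. Lyz1, the lysozyme of Paneth cell granules, was detected in 40 of 40 sorted and 23 of 24 picked Paneth cell wells. It made up 1.07% to 22.8% of transcripts in the sorted wells (median 10.5%) and 0% to 12.2% in the picked wells (median 3.27%). Among the other sorted wells 56.4% had a Lyz1 transcript, at a median of 0.006% of transcripts, so that a low level of Lyz1 RNA was present well beyond the Paneth cell wells. Itln1, the lectin intelectin, made up 0.685% to 9.97% (median 5.73%) in sorted and 0.333% to 6.10% (median 2.54%) in picked Paneth cell wells.

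Across the 40 sorted Paneth cell wells, the share of rule genes rose with that of Lyz1 at Spearman's rho of 0.335, and across the 24 picked wells at 0.730. For Itln1 the values were 0.379 and 0.617, and for the phospholipase Pla2g2a 0.094 and 0.323. The goblet cell genes used to define goblet wells (below) had rho of −0.465 in sorted and −0.110 in picked wells. These are descriptions over wells that share libraries, depth and the rule itself.

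**Figure D1:**
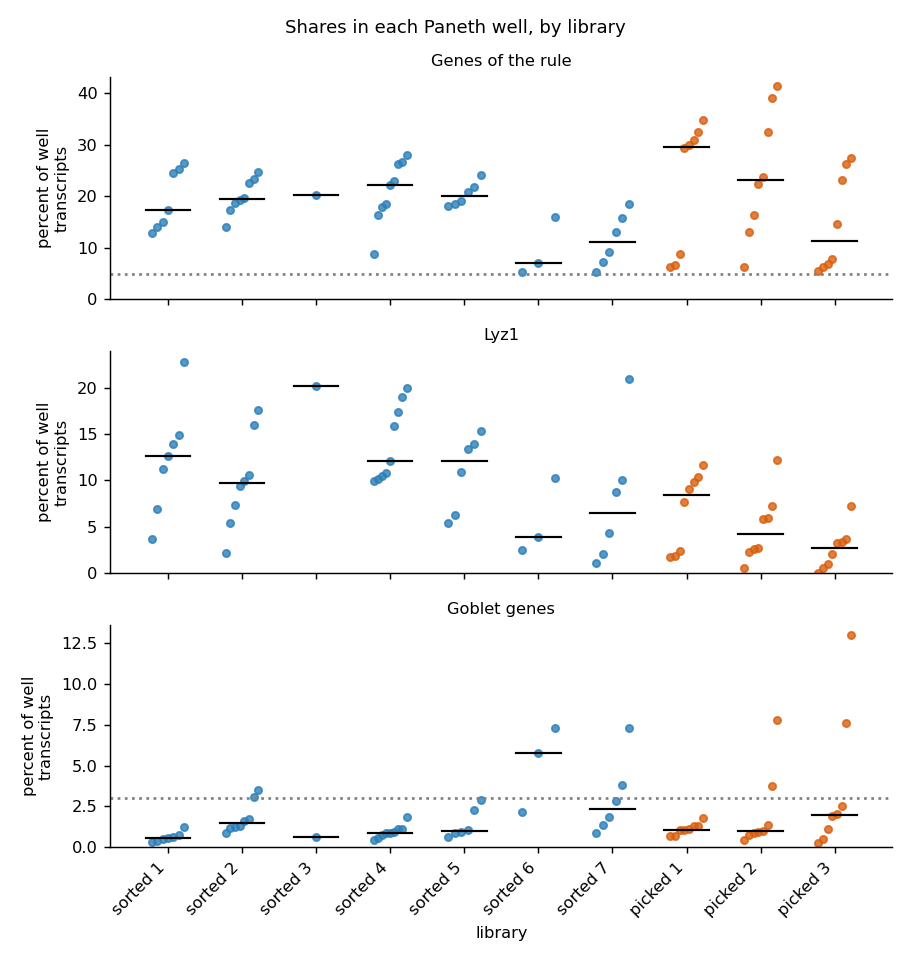
Shares of well transcripts in each Paneth cell well (points; blue sorted, orange picked) by library, with black lines at library medians. Rule-gene shares start at the 5% threshold and reach 28.1% in sorted and 41.3% in picked wells. Lyz1 shares reach 22.8% in sorted and 12.2% in picked wells. Dotted lines mark the 5% threshold and a goblet gene share of 3%.

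The rule genes did not divide in the same way in picked and sorted Paneth cell wells. The rule used their sum, so these shares are a description with no test, and a gene's share also moves when the shares of others do. Of the 19 rule genes found, 10 made up at least 1% of the sum, and the other 9 together made up 0.233% to 4.38% in each library. Defa24 made up 18.3%, 20.6%, 13.3%, 18.9%, 24.1% and 14.7% in sorted replicates 1, 2, 4, 5, 6 and 7, and 28.2%, 38.6% and 37.4% in picked replicates 1 to 3. Defa17 made up 2.30%, 5.56%, 2.29%, 4.70%, 4.85% and 3.12% against 10.2%, 11.8% and 14.5%. For both genes every picked library lay above every sorted one.

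Means were 18.3% ± 3.94 (SD, n = 6) in sorted against 34.7% ± 5.70 (n = 3) in picked libraries for Defa24, and 3.80% ± 1.41 against 12.2% ± 2.17 for Defa17. Mptx2 was at 8.71% in sorted and 1.57% in picked libraries on average. Its sorted values ran from 3.13% to 8.98% apart from 23.2% in sorted replicate 7, and its picked values were 1.61%, 1.35% and 1.74%. Gm14851 was at 15.6% and 10.7%, with 1.90% in sorted replicate 6. The ribonuclease Ang4 made up 7.87% and 7.01%, Defa20 12.1% and 13.3%, Defa21 5.59% and 5.94%, Defa22 5.22% and 6.14%, and Defa26 1.38% and 2.19%.

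**Figure D2:**
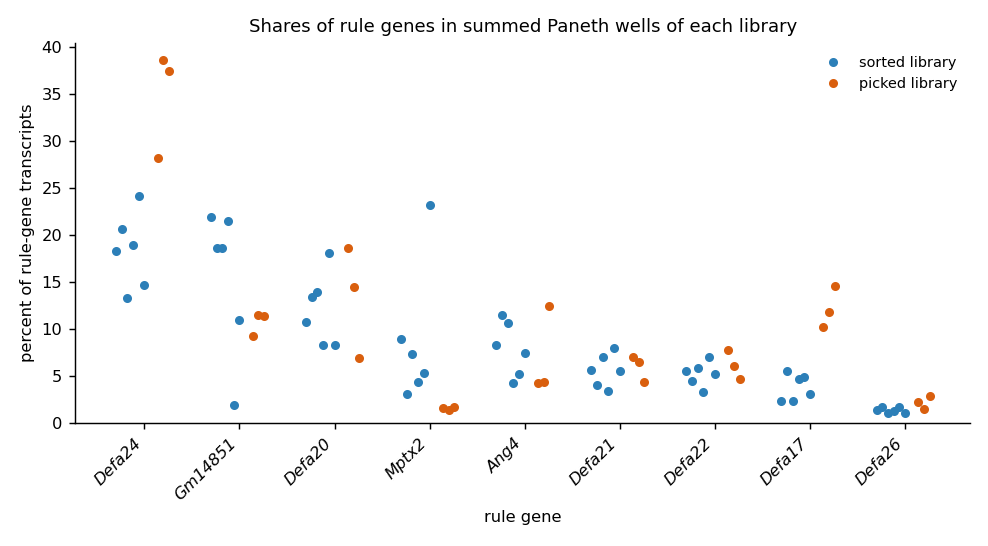
Share of rule-gene transcripts, in percent, that single rule genes took in the summed Paneth cell wells of each library (points; blue sorted, orange picked). Defa24 takes 13.3% to 24.1% in sorted and 28.2% to 38.6% in picked libraries, and Defa17 2.29% to 5.56% and 10.2% to 14.5%.

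Changes outside the rule genes were measured by summing the Paneth cell wells of each library and its other wells, over genes outside the rule. CPM values from here on are relative to the total of these genes. Differences were fitted with limma on log2(CPM + 20), paired by library, in 6 sorted libraries and 3 picked libraries, and centred so that the median gene of each library did not change. A change is therefore relative to the median gene, and on this scale the change of low genes is understated. A call is a Benjamini-Hochberg adjusted p under 0.05 over all 2916 genes tested. Genes were tested at a mean of 50 CPM or more over Paneth cell and other sums together. A gene far below this in other wells, such as Wnt3, Slc30a2 or Tmed6, passed only through its level in Paneth cell wells. The filter therefore favoured rises of such genes. The wells were chosen by the same RNA molecules, so the comparison describes which other genes went with a high share of rule genes.

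In sorted Paneth cell wells 262 genes were higher (8.98% of those tested) and 338 lower (11.6%). In picked Paneth cell wells 57 were higher (1.95%) and 22 lower (0.754%). Of the picked calls, 56 of the 57 higher and 18 of the 22 lower genes were also called in the sorted libraries. Without centring, the median gene fell by 0.96 on the log2 scale in sorted Paneth cell wells and by 0.56 in picked ones, and the split became 86 higher and 1652 lower, and 41 higher and 85 lower. Of the 262 sorted rises, 86 were also called higher without centring and 20 had a change below 0. Leaving out Paneth cell wells with a goblet gene share of 3% or more gave 198 higher and 278 lower in sorted libraries. The picked calls were 38 higher and 11 lower without picked replicate 2, and 43 and 2 without picked replicate 3.

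**Figure D3:**
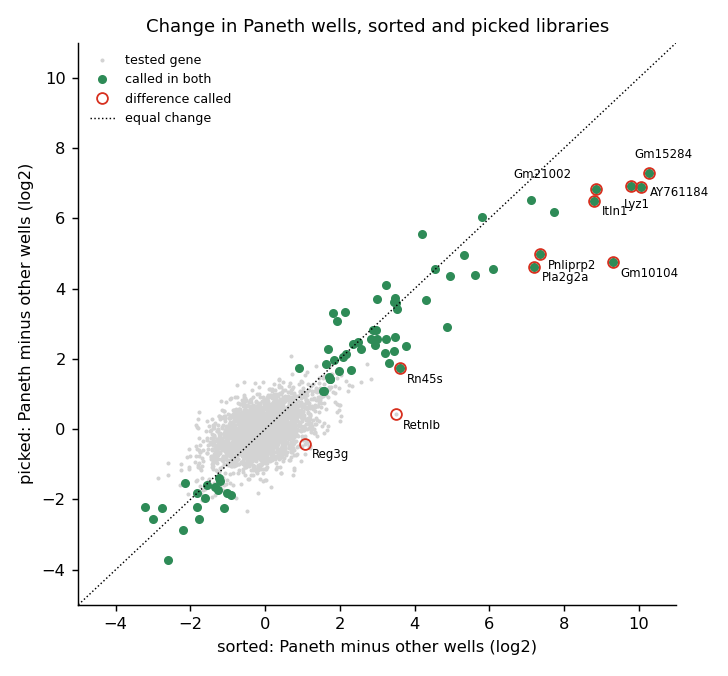
Log2 change in Paneth cell wells relative to other wells of the same libraries, sorted on the horizontal and picked on the vertical axis, for each tested gene. Green points were called in both groups, red circles mark the 11 genes whose changes differed between picked and sorted libraries, and these lie below the dotted line of equal change.

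Secreted products of Paneth cells were among the largest rises, next to the defensin genes described further on. Of 20 tested members of the list of such products, 16 rose and 2 fell in sorted Paneth cell wells, with a median log2 change of 3.50 against −0.12 over all genes tested. In picked Paneth cell wells 14 rose and 1 fell. The list was drawn up with results of these data known. Lyz1 ranged from 80956 to 202320 CPM (median 140430) in sorted Paneth cell sums and from 105 to 713 CPM (median 323) in the other wells. The libraries of the 2 kinds of sum were far apart, and the log2 change was 9.78 ± 0.285 (SE; limma, adjusted p = 4.3e-26). In picked replicates 1 to 3 Lyz1 was at 106610, 98516 and 31029 CPM in Paneth cell wells and at 4069, 599 and 260.3 CPM in the others, a log2 change of 6.92 ± 0.404 (limma, adjusted p = 5.7e-16). Picked replicate 3 had the lowest level in Paneth cell wells and picked replicate 1 the highest level in other wells.

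Itln1 ranged from 40777 to 89808 CPM (median 69974) in sorted Paneth cell sums and from 101 to 844 CPM (median 243) in the others, a log2 change of 8.81 ± 0.296. In picked Paneth cell wells Itln1 was at 50682, 33226 and 35338 CPM, with 1852, 348 and 422 CPM in the others, a log2 change of 6.51 ± 0.419. Both passed the test, and no Paneth cell sum overlapped an other sum.

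Pla2g2a, the secreted phospholipase that attacks bacterial membranes, ranged from 84430 to 135280 CPM (median 99221) in sorted Paneth cell sums and from 500.02 to 5740.5 CPM (median 1023) in other wells, a log2 change of 7.21 ± 0.322. In picked replicates 1 to 3 it was at 56684, 1342 and 823 CPM in Paneth cell wells and at 8837, 32.5 and 18.6 CPM in others. It rose in each picked library, by 4.62 ± 0.456 on the log2 scale, yet picked replicates 2 and 3 were far below every other library in both kinds of well. C57BL/6 mice are known for a disrupted Pla2g2a allele. Whether the animals differed in this gene was not tested.

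Other secreted products were lower in level, and several were as plainly separated in sorted libraries. The lipase-related Pnliprp2 was at 2407 ± 1104 CPM (SD, n = 6) in sorted Paneth cell sums and at 3.81 CPM in other wells, a log2 change of 7.36 in sorted and 4.98 in picked libraries. Clps, the colipase that serves pancreatic lipase, ranged from 1098 to 3644 CPM (median 1989) against 4.46 to 13.3 CPM (median 8.29), a log2 change of 7.11, and rose by 6.51 in picked libraries. Mmp7, the protease that matures the defensins, ranged from 3033 to 8336 CPM (median 4439) against 50.3 to 753 CPM (median 124), with log2 changes of 5.61 in sorted and 4.39 in picked libraries. For the pentraxin Mptx1 the log2 changes were 5.33 and 4.96, for the lectin Reg4 4.95 and 4.36, and for the hyaluronan-binding protease Habp2 4.87 and 2.91. The guanylin peptides rose in sorted Paneth cell wells by 2.98 (Guca2b) and 1.68 (Guca2a), and the angiogenin Ang by 2.17.

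The Reg3 lectins, antimicrobial proteins also made by enterocytes, differed from the rest of the list. Reg3b ranged from 74.7 to 731 CPM (median 258) in sorted Paneth cell sums against 2072 to 3112 CPM (median 2357) in other wells, a log2 change of -2.14, and changed by -1.54 in picked libraries; both passed. Reg3a fell in sorted libraries by 1.15 on the log2 scale. Reg3g ranged from 973 to 7138 CPM (median 2342) against 1613 to 3031 CPM (median 2753) and rose by 1.05 ± 0.203 relative to the median gene in sorted libraries (limma, adjusted p = 0.00023), while without centring its change was 0.21 and did not pass. In picked libraries the change of Reg3g was -0.42 and did not pass. Retnlb, a secreted resistin-like protein of goblet cells, ranged from 1271 to 11027 CPM (median 1680.2) in sorted Paneth cell sums against 183 to 2161 CPM (median 218) in other wells, a log2 change of 3.50. Its highest value was that of sorted replicate 7. There 1 well, with 7.30% goblet genes, held 2.71% Retnlb, and the other Paneth cell wells held at most 0.314%.

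**Figure D4:**
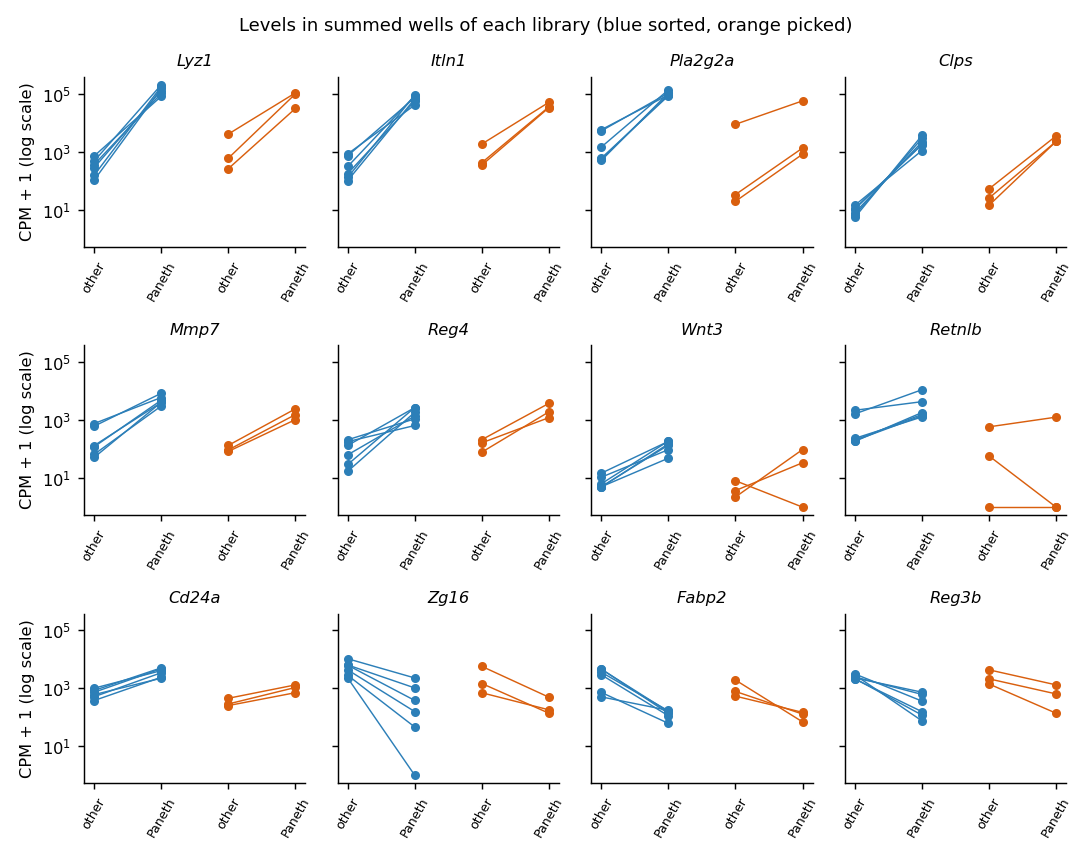
Levels of genes outside the rule (CPM + 1, log scale) in summed other and Paneth cell wells; each line joins the 2 sums of 1 library, blue for sorted and orange for picked. Lyz1 and Itln1 are higher in Paneth cell wells in each of the 9 libraries, and Pla2g2a is low in both kinds of well in picked replicates 2 and 3.

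Defensin genes whose symbols the rule did not cover rose with those it did. All 10 tested rose in both sorted and picked Paneth cell wells. They are close copies of the rule genes, so they are no independent support. Gm15284, whose sequence is printed above, ranged from 32489 to 44728 CPM (median 40818) in sorted Paneth cell sums and from 23.5 to 126 CPM (median 33.2) in others, a log2 change of 10.27, and rose by 7.30 in picked libraries. AY761184 ranged from 47457 to 152970 CPM (median 123170) against 97.6 to 260.3 CPM (median 160.3), with log2 changes of 10.04 and 6.89. For Gm21002 (Defa33 in RefSeq) the log2 changes were 8.86 and 6.85, and for Gm15315 (Defa34) 4.19 and 5.54. Gm10104 (Defa35) ranged from 6519 to 11538 CPM (median 7792) in sorted Paneth cell sums, and was at 9341, 196 and 103 CPM in picked ones, where replicate 1 again resembled the sorted libraries. In single wells the defensin genes outside the rule made up 3.64% to 29.9% of transcripts in sorted (median 14.2%) and 0.0953% to 32.4% in picked Paneth cell wells (median 10.0%). With them, the defensins and other rule genes together reached a median of 33.8% in sorted and 37.3% in picked Paneth cell wells, and 62.4% at the highest. If they were counted, 8 other wells would have reached 5% (6 sorted, 2 picked).

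Among genes that mark or build Paneth cells without being granule products, 6 of 12 rose and 0 fell in sorted Paneth cell wells (median log2 change 0.99), and 1 of 12 rose in picked ones. Without centring 5 were higher and 2, Tspan8 and Fzd5, lower in sorted Paneth cell wells. Cd24a, a surface protein used to sort Paneth cells, ranged from 2211 to 5038 CPM (median 3735) against 376 to 1004 CPM (median 664), a log2 change of 3.44 ± 0.192, and rose by 2.22 in picked libraries. Slc30a2, which moves zinc into granules, ranged from 47.3 to 315 CPM (median 178) against 1.87 to 15.2 CPM (median 10.4), a log2 change of 3.51. Bhlha15 (Mist1), a factor of secretory cells, changed by 2.71. Ephb3, a Wnt target that holds Paneth cells at the crypt base, changed by 2.55, and Sox9, a factor needed to form them, by 1.71 with the same sign in 5 of 6 libraries. The receptor Kit rose by 1.30 on the centred scale, with 0.46 and no call without centring. The log2 values of the 6 others did not pass: 0.56 for Atoh1, which sets the secretory fate, 0.41 for Xbp1, 0.67 for Creb3l1, -0.31 for the Wnt receptor Fzd5 (-1.15 without centring), 0.12 for Ifitm3 and -0.66 for the tetraspanin Tspan8. Tspan8 ranged from 93.2 to 362 CPM (median 195) in sorted Paneth cell sums and from 419 to 982 CPM (median 679) in other wells. These did not overlap, and without centring its change was -1.50.

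Of 16 stem cell niche ligands listed, Wnt3 was the only one at a level that could be tested against other wells. Wnt3 passed the filter only through its level in Paneth cell wells, so the tests below are no independent support for a rise. It was at 47.3 to 187 CPM (median 142) in sorted Paneth cell sums and at 3.87 to 13.7 CPM (median 4.68) in other wells, a log2 change of 3.30 ± 0.375 (limma, adjusted p = 1.5e-08). In picked Paneth cell wells Wnt3 was at 94.8, 32.6 and 0 CPM against 1.23, 2.71 and 7.10 CPM, and replicate 3 had none; the log2 change of 1.90 had a limma adjusted p of 0.042 and lost the call without picked replicate 1 or 2, or without sorted replicate 1, 4 or 7, with thinned sums, or without centring. By well, Wnt3 was detected in 15 of 40 sorted and 6 of 24 picked Paneth cell wells, and Dll4 in 3 of 40 and 1 of 24. Ereg, Btc, Nrg1, Wnt6, Wnt9b, Wnt11, Rspo3 and Jag2 had 0 transcripts in all Paneth cell sums, which at these depths does not show that they are absent.

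Several genes of the secretory pathway were higher in sorted Paneth cell wells when read against the median gene. Of 28 genes of protein translocation into the endoplasmic reticulum 10 rose and 0 fell (median log2 change 0.65), of 28 genes of traffic between the reticulum and the Golgi 10 rose and 0 fell (0.55), and of 18 genes of the unfolded protein response 6 rose and 0 fell (0.42). Without centring the same lists gave 2 higher and 1 lower, 1 higher and 8 lower, and 2 higher and 5 lower, so the direction of the Golgi traffic and unfolded protein lists as a whole depends on the scaling. In picked libraries 0, 2 and 2 members rose. Members that rose under either scaling included Tmed6, a cargo receptor of early secretory vesicles, which ranged from 60.9 to 157 CPM (median 106) in sorted Paneth cell sums against 3.01 to 7.07 CPM (median 3.57) in other wells (log2 change 3.21). They also included Tram1, a translocon protein (225 to 1158 CPM (median 474) against 208 to 443 CPM (median 242), log2 change 1.87), and the signal peptidase subunit Spcs3 (log2 change 1.99). Herpud1, which works in degradation of misfolded reticulum proteins, changed by 1.71 and the disulfide isomerase P4hb by 1.58. The chaperone Hspa5 had a log2 change of 0.61, called only on the centred scale, with -0.23 without centring.

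Of 14 lysosome and autophagy genes, 5 rose and 1 fell in sorted Paneth cell wells, and without centring 1 rose and 5 fell. The granule and lysosome membrane protein Cd63 rose under both scalings, by 1.73 on the centred scale. Lamp2 changed by 1.35, the protease Ctsd by 0.99 and the autophagosome protein Map1lc3b by 0.83, called on the centred scale only; for Map1lc3b the change without centring was -0.02. The sphingolipid activator Psap fell by 1.45 on the log2 scale.

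Genes of absorptive cells, respiration and division were lower in Paneth cell wells. Of 16 tested enterocyte markers 15 fell in sorted and 5 in picked Paneth cell wells, and 0 rose in either. Fabp2, the intestinal fatty acid binding protein, ranged from 60.9 to 173 CPM (median 145) in sorted Paneth cell sums and from 503 to 4603 CPM (median 3240.5) in other wells, a log2 change of -2.76 ± 0.319. In picked libraries Fabp2 was at 128, 147 and 68.5 CPM against 775, 534 and 1917 CPM, a log2 change of -2.24. Mttp, which loads lipoproteins, changed by -2.60, Krt20 by -2.28, Fabp1 by -2.20 and the apolipoprotein Apoa1 by -1.76 in sorted libraries. The largest picked falls among these were Fabp1 (-2.86) and Apoa1 (-2.55). The bile acid binding protein Fabp6 (-2.21), the brush border myosin Myo1a (-2.33) and Clec2h (-1.97) also fell, as did the ribosome factor Eif6 (-2.26).

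Of 31 genes of oxidative phosphorylation 21 fell and 0 rose in sorted Paneth cell wells (median log2 change −0.92), and 0 passed in picked ones. Cox5a, a subunit of cytochrome oxidase, ranged from 47.3 to 244 CPM (median 91.7) against 737 to 1019 CPM (median 855), a log2 change of -1.74, and Ndufb9 of complex I changed by -1.86. Of 9 glycolysis genes 4 fell in sorted and 1 in picked Paneth cell wells, among them Ldha by -1.23 and Gapdh by -0.83 in sorted. Of 19 proliferation genes 11 fell and 0 rose in sorted Paneth cell wells, with Ube2c at 0 to 183 CPM (median 61.8) against 284 to 552 CPM (median 371) (log2 change -1.40) and Mki67 at a log2 change of -1.05; 1 fell in picked ones. Also among the largest sorted falls were Dmbt1 (-2.87), S100a10 (-2.59), Krt19 (-2.25) and Crip1 (-2.24).

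Immediate-early genes, the first to respond when cells are stimulated or stressed, were higher in Paneth cell wells. Of 15 tested 10 rose and 0 fell in sorted (median log2 change 1.50) and 4 rose in picked libraries. Without centring 6 rose and 1 fell in sorted and 2 rose in picked libraries, and with sums thinned to equal depth 9 and 1 rose. Fosb ranged from 0 to 270.4 CPM (median 179.8) in sorted Paneth cell sums and from 16.8 to 33.9 CPM (median 25.0) in others, a log2 change of 2.48. In picked libraries Fosb was at 242, 555 and 1200.1 CPM against 171, 98.8 and 162 CPM, a log2 change of 2.47. Nr4a1 changed by 2.35, Btg2 by 2.16, Atf3 by 2.02 and Jun by 1.74 in sorted libraries. Of 9 heat shock genes 4 fell and 0 rose in sorted libraries, such as Hspd1 by -1.09. The ribosomal RNA precursor Rn45s, a transcript without a poly(A) tail that was listed among signs of RNA quality, moved with these groups. It ranged from 11543 to 44452 CPM (median 23620) in sorted Paneth cell sums against 2386 to 9017 CPM (median 2745) (log2 change 3.60), and was at 38575, 91495 and 79372 CPM against 27293, 37158 and 28764 CPM in picked libraries. Its part in the other changes was not tested. Of 73 ribosomal protein genes 15 fell and 1 rose in sorted Paneth cell wells, and without centring 70 fell. The one that rose, Rpl41, changed by 0.80 with centring and by -0.04 without it.

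Markers of other cell types were present in Paneth cell wells in part. Of 13 tested goblet markers 5 rose and 3 fell in sorted Paneth cell wells, and without centring 4 rose and 5 fell. The mucin Muc2 ranged from 2319 to 12973 CPM (median 4228) against 1522 to 11812 CPM (median 3055), a log2 change of 1.46, and Spink4 from 2435 to 21756 CPM (median 11437) against 577 to 6100.5 CPM (median 1167) (3.53; 3.43 in picked libraries). The chemokines Ccl6 and Ccl9 rose by 3.48 and 2.29, while Zg16 (-3.22), Fcgbp (-3.01) and Clca3 (-2.61) fell. Goblet genes reached 3% of transcripts in 10 Paneth cell wells (6 sorted, 4 picked), and 5 of these had under 10% rule genes. At 1000 transcripts drawn from each well, 97.5% of sorted Paneth cell wells held a goblet marker transcript against 55.0% of other wells, and 70.8% against 47.3% in picked libraries. Enterocyte markers were found in 22.5% against 54.5% in sorted and 12.5% against 41.3% in picked libraries, and proliferation genes in 17.5% against 29.6% and in 25.0% against 35.9%. Stem cell markers were found in 35.0% of sorted Paneth cell wells against 52.1% of other wells, and in 41.7% against 32.7% in picked libraries. The tuft cell markers Dclk1, Trpm5 and Avil and the leukocyte markers Ptprc, Cd3e, Cd79a and Csf1r were at 0 in Paneth cell wells of both groups at this depth. That limits wells with such a transcript among the 1000 drawn to 8.81% of sorted and 14.2% of picked Paneth cell wells (exact 95% upper bound), and does not limit wells that express these genes. Without thinning, 2.5% of the sorted wells held a tuft and 8.33% of the picked wells a leukocyte marker.

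Summed over whole marker lists, sorted Paneth cell and other wells overlapped for goblet and enteroendocrine genes and not for enterocyte and stem cell genes. The 18 goblet genes listed summed to 10190 to 50361 CPM in sorted Paneth cell wells and to 11877 to 65972 CPM in the other sorted wells. The 24 enterocyte genes summed to 609 to 1195 CPM against 2953 to 14540 CPM, with Rbp2 and Treh at 0 in Paneth cell wells, and the 27 enteroendocrine genes to 0 to 409 CPM against 294 to 1999 CPM, with 10 of them at 0. The 20 stem cell genes summed to 1461 to 1803 CPM against 2227 to 4476 CPM. These sums are not centred, and without centring the median gene changed by -0.96 on the log2 scale. Of 8 stem cell genes tested in sorted libraries 0 rose and 1 fell, or 0 and 4 without centring. On the centred scale their median log2 change was 0.08, against -0.12 over all genes tested. The part of other cells in the results was not tested.

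The stem cell receptor Lgr5 was at 94.9, 65.3 and 171 CPM in picked Paneth cell wells and 20.9, 32.5 and 26.6 CPM in the other picked wells, and the groups did not overlap. The log2 change of 2.08 ± 0.580 had a limma adjusted p of 0.042. The call was lost without any 1 of the picked replicates or without sorted replicate 4 or 7, and also with sums thinned to equal depth or without centring. In sorted libraries the change of Lgr5 was 0.70 and did not pass, and the difference between the groups had a limma adjusted p of 0.79. By well, Lgr5 was found in 11 of 24 picked and 9 of 40 sorted Paneth cell wells. Olfm4, another stem cell marker, was found in 1 of 24 and 0 of 40.

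**Figure D5:**
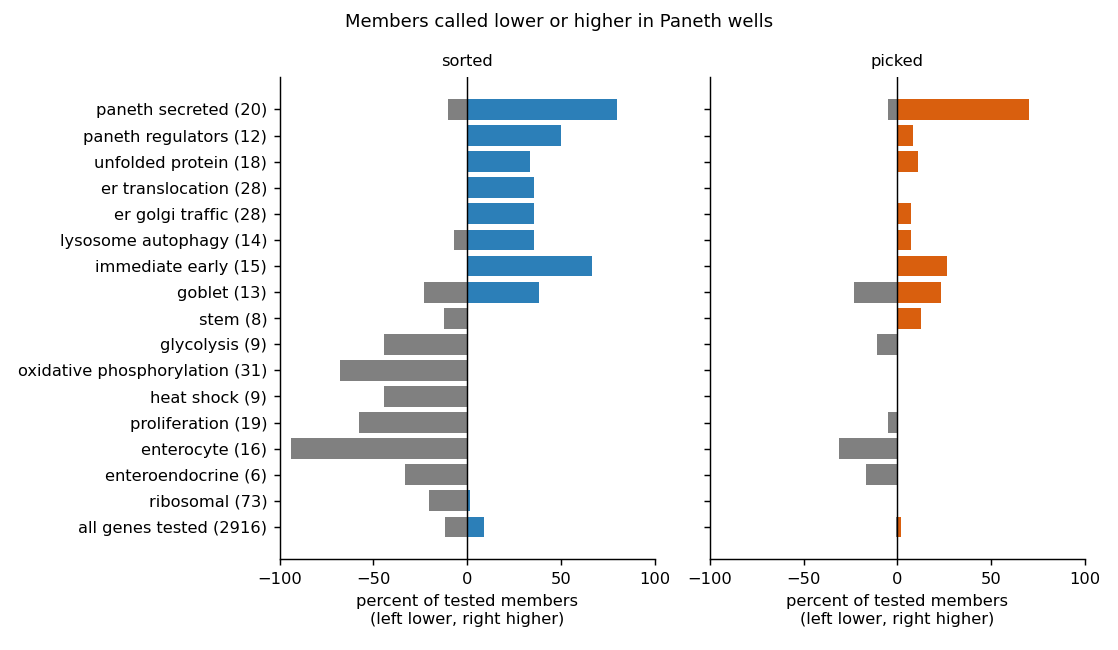
Percent of tested members of each gene list called lower (left of 0) or higher (right of 0) in Paneth cell wells, for sorted and picked libraries, with the number tested in brackets and all genes tested at the end. Secreted products lie mostly to the right in both groups and enterocyte genes to the left. The Golgi traffic, unfolded protein, lysosome and goblet lists change direction without centring in sorted libraries.

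Goblet cells are the other crypt cells packed with secretory product, and 401 wells of the 6 tested sorted libraries, outside the Paneth cell wells and with at least 3% goblet genes (Muc2, Fcgbp, Zg16, Clca1, Clca3, Tff3 and Spink4), were used to compare the types. Of these wells, 174 were in sorted replicate 6 and 98 in sorted replicate 7. With the genes that chose either kind of well left out, 128 of 2678 genes were higher in Paneth cell wells (4.78%) and 192 lower (7.17%). Of the secreted Paneth cell products 14 of 17 were higher and 3 lower, and of the defensin genes outside the rule 9 of 9 were higher. Lyz1 was at 921 CPM in goblet sums, with a log2 difference of 8.24, and Itln1 differed by 6.68 and Mmp7 by 3.42. The defensin genes AY761184, Gm15284, Gm10104, Gm21002 and Gm15292 differed by 9.30, 9.21, 9.08, 8.72 and 7.63, and Pnliprp2 by 7.06.

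Regulators divided between the types, with 6 of 12 higher and 4 lower in Paneth cell wells, or 5 and 5 without centring. Slc30a2 (3.95), Ephb3 (3.23), Cd24a (3.04) and Sox9 (1.69) were higher. Of 2 niche ligands tested, Wnt3 was higher (2.86) and the Notch ligand Dll1 lower (-1.31), at 33.0 CPM in Paneth cell and 183 CPM in goblet sums. Each was under 50 CPM in the type where it was lower, so it passed the filter through the other type. The call for Dll1 was lost without any 1 of sorted replicates 1, 2, 4 and 5. Atoh1 (-1.51) and Creb3l1 (-1.35) were lower. Agr2, a disulfide isomerase needed for mucin, was at 1002 CPM in Paneth cell sums and 10254 CPM in goblet sums (log2 difference -2.71 ± 0.212). The signalling regulator Rgs2 (-3.18), the actin-severing Scin (-3.10), Krt20 (-3.04), S100a10 (-3.04), S100a6 (-2.91), Bcas1 (-2.91) and Anxa2 (-2.83) were lower too. Of the unfolded protein genes 1 of 21 was higher and 5 lower, and of the translocation genes 2 of 28 higher and 3 lower. Without centring 49 genes were higher and 1368 lower.

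Levels in picked and sorted Paneth cell wells were compared directly, over 2073 genes. In the picked wells 94 genes were higher (4.53%) and 37 lower (1.78%), 6.32% in either direction; without centring, where the median gene shifted by 0.40 on the log2 scale, 156 were higher and 9 lower. Ribosomal protein genes made up 38 of the 94, of 73 tested, with 0 lower and a median log2 difference of 1.24. Their summed level was 54881 CPM in sorted and 126466 CPM in picked Paneth cell wells, and it was also higher in the other wells of the picked libraries (198503 against 127804 CPM). The largest rises were Gm6654 (3.71), Rpl37 (3.45), 2310014L17Rik (3.25), Gm11517 (3.04), Xist (3.04), Tor4a (3.03), the invariant chain Cd74 (2.92), Gas5 (2.87), Rps19-ps3 (2.85) and Rpl31 (2.81). Pseudogenes such as Rps19-ps3 can share reads with their parent genes, so their values are uncertain. Gm6654 was at 116 CPM in sorted and 1813 CPM in picked Paneth cell wells. The other wells differed the same way, with means of 472 and 2624 CPM for Gm6654, 2.17 and 468 CPM for 2310014L17Rik, 108 and 1201 CPM for Tor4a, 148 and 898 CPM for Gm11517, and 82.8 and 999 CPM for Rpl37. Of the immediate-early genes 3 of 14 were higher and 0 lower in picked Paneth cell wells, Atf3 among them (2.27).

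The genes lower in picked Paneth cell wells included 5 of 19 secreted products and 1 of 10 defensin genes outside the rule. The log2 differences were -5.02 for Retnlb, -4.80 for Pla2g2a and -3.85 for Gm10104, and for each of them picked replicate 1 lay nearer the sorted libraries than replicates 2 and 3 did. Retnlb was at 1254, 0 and 0 CPM in the picked Paneth cell sums against 1271 to 11027 CPM (median 1680.2) in the sorted ones. Mmp7 was at 2425, 1537 and 1029 CPM, against 3033 to 8336 CPM (median 4439) in sorted libraries, a log2 difference of -1.74. Cd24a differed by -1.94 and Sox9 by -1.62. Of the secretory machinery, Spcs3 (-2.87), the cargo receptor Surf4 (-2.23), the translocon-associated Ssr1 (-2.13) and Tram1 (-1.78) were lower, as were the granule fusion protein Syt7 (-2.46), Hepacam2 (-2.28), the protease Ctsc (-2.25), Habp2 (-2.13) and Anxa7 (-2.13). Means in the other wells were lower in picked libraries too: 676 CPM sorted and 329 CPM picked for Cd24a, 234 and 84.7 CPM for Sox9, 288 and 102 CPM for Mmp7, and 153 and 50.1 CPM for Spcs3. The same held for Surf4 (374 and 171 CPM), Ssr1 (312 and 146 CPM) and Hepacam2 (255 and 59.1 CPM). None of these 7 is among the 11 genes below, whose change from other wells differed between the groups. The log2 values of levels were -1.11 for Lyz1 and -0.91 for Itln1, and neither passed. Without picked replicate 3 the calls fell from 131 to 29, and without picked replicate 2 to 66; sex and experiment code differ between the groups as well.

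The change from other wells to Paneth cell wells was smaller in picked than in sorted libraries for 11 of 2916 genes (0.377%), and larger for 0 (0%). At an unadjusted p under 0.05 there were 186 genes in either direction. The 11 were the defensin genes Gm10104 (difference of log2 changes -4.55), AY761184 (-3.16), Gm15284 (-2.97) and Gm21002 (-2.01), then Retnlb (-3.08), Lyz1 (-2.86), Pla2g2a (-2.58), Pnliprp2 (-2.39), Itln1 (-2.30), Rn45s (-1.87) and Reg3g (-1.47). The other wells of picked libraries held more of several of these transcripts: Gm15284 was at 1505, 644 and 373 CPM there and at 23.5 to 126 CPM (median 33.2) in the other sorted wells. The part of this background in the smaller changes was not tested. Pla2g2a was at 32.5 and 18.6 CPM in the other wells of picked replicates 2 and 3. These are near the 20 CPM added before the log, which understates its change there. Retnlb was at 0 CPM in the Paneth cell wells of those replicates. With 5 CPM added, 5 genes passed. The count was 4 without picked replicate 3, 6 without sorted replicate 4, 7 without any 1 of picked replicate 1 and sorted replicates 1 and 2, and 5 without centring.

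At the same depth Paneth cell wells held transcripts of fewer genes than other wells. Choosing wells by a high share of few genes favours this outcome. At 1000 transcripts drawn per well, sorted Paneth cell wells had 354 ± 77.2 genes (SD over 6 libraries) against 699 ± 13.1 in other wells, and picked Paneth cell wells 428 ± 56.6 against 620 ± 8.50 (3 libraries). The difference averaged −294 genes and was lower in 9 of 9 libraries (two-sided exact permutation test by sign flips, p = 0.0039, the smallest 9 libraries allow). With the rule genes left out it was −256 genes (exact permutation p = 0.0039). These draws still held the defensin genes outside the rule and Lyz1. In sorted Paneth cell wells their medians were 14.2% and 10.5% of all transcripts. Their part in the lower number of genes was not tested. The defensin genes outside the rule are close copies of those that chose the wells. Neither test therefore shows a lower number of genes apart from that choice. The mean ratio of total transcripts per well had opposite signs in sorted and picked libraries. The log2 ratio of Paneth cell to other wells averaged −0.58 in sorted libraries, lower in 5 of 6 (exact permutation p = 0.094), 0.81 in picked libraries, higher in 2 of 3 (exact permutation p = 0.5, where 3 libraries cannot go below 0.25), and −0.11 over all 9 (exact permutation p = 0.762). With the rule genes left out the sorted ratio was −0.86, lower in 6 of 6 libraries (exact permutation p = 0.031, the smallest 6 libraries allow). Over all 9 libraries it was then −0.43 (exact permutation p = 0.227). Leaving out these genes lowers Paneth cell totals by the choice of wells, so no conclusion is drawn from these ratios. Per spike-in molecule the log2 ratio was 0.515 over the 9 libraries, higher in 7 (exact permutation p = 0.055), with 1.15 in picked and 0.199 in sorted libraries. With the rule genes left out it was 0.205 (exact permutation p = 0.328), with 0.739 in picked and −0.062 in sorted libraries, and the same limit applies. These p-values are not adjusted over the measures. Picked wells may hold more than 1 cell.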

How the data were processed

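Transcripts were measured by CEL-seq2 with ERCC spike-ins and paired-end sequencing of 75 bases on a NextSeq500, per the labels' protocols. The submitters' processing notes name BWA 0.6.2-r126 and the mouse build mm10. For the counting software and its strand setting nothing is stated in the labels. The deposited values are the authors' estimates of molecule counts per gene and well, corrected for molecules that share 1 of 4096 barcodes, and all values returned whole barcode counts within 0.001. Their unit was recorded as other, so no count model was run.

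The wells, gene lists and sequences shown were chosen with earlier results of these data known. Rule genes were left out of the totals and tests of the comparisons across genes. Sizes of wells were computed with them and again without them. A planned test of how the rule genes divide was dropped, because their values chose the wells; of the 10 rule genes with at least 1% of their sum, 1 is not reported here. Sums per library with at least 3 Paneth cell wells were scaled by TMM, filtered at a mean of 50 CPM, and fitted as log2(CPM + 20) with limma 3.58.1 in R 4.3.3; other steps used Python 3.11.15 with scipy 1.17.1. Differences between Paneth cell and other wells were paired by library, because both come from the same plate. The fit was first written without centring on the median gene. On data simulated from the sorted libraries that fit called 335 of 3547 unchanged genes, with a median of −0.54; with centring it called 9, and recovered 98% of genes raised 4-fold, 82% lowered 4-fold, and 32% raised 2-fold. In picked libraries centring recovered 90%, 54% and 6%. Centring was therefore made the main setting. The simulated sums all followed the profile of other wells, with changes of at most 4-fold. They lack the far larger rises of Lyz1 and the defensin genes. Their median of −0.54 also falls short of the −0.96 in the sorted data. How centring does under such a shift was not measured. The same changes were simulated in both groups, so recovery of a difference of changes was not measured.

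The rule for named genes was: the 15 largest rises and 10 largest falls of the sorted comparison, 10 each of the picked comparison and of the comparison of levels, and 8 each of the difference and the goblet comparison, with the same sign in every library or no overlap between groups; all tested members of the Paneth cell and niche lists; and up to 4 members of each other list. Further members were named from the lists after their values were seen. Alternatives changed the pseudocount, filter, scaling, thresholds of the rule and of wells, pairing, depth and libraries. Sequences come from RefSeq (GRCm38.p6) and from GENCODE vM21 on GRCm38.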

Additional observations from a re-analysis of the deposited data

Results flagged for a closer look

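In 2 of 23 groups of sorted Paneth cell values checked, 1 library stood apart from the rest of its group. Such a check flags about 1 in 20 groups by chance. Several of the groups were shares of rule genes, whose values chose the wells. The flags are therefore a description, and no conclusion is drawn from their number. Mptx2 made up 23.2% of rule-gene transcripts in sorted replicate 7. Retnlb was at 11027 CPM in Paneth cell wells of sorted replicate 7. In that library 1 well held 2.71% Retnlb, and the other Paneth cell wells at most 0.314%. That well had 7.32% rule genes and 7.30% goblet genes, so the value rests mainly on 1 well rich in goblet genes.

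For 11 genes the log2 change in Paneth cell wells differed between picked and sorted libraries in a test of the difference itself (limma, Benjamini-Hochberg adjusted p in brackets). The difference, picked minus sorted, was -4.55 for Gm10104 (1.4e-06), -3.16 for AY761184 (1.6e-05), -3.08 for Retnlb (0.00075), -2.97 for Gm15284 (7e-07), -2.86 for Lyz1 (0.00079) and -2.58 for Pla2g2a (0.017). It was -2.39 for Pnliprp2 (0.045), -2.30 for Itln1 (0.023), -2.01 for Gm21002 (0.015), -1.87 for Rn45s (0.0024) and -1.47 for Reg3g (0.047).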

How the results depend on the processing

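Of 5604 values of 193 gene results under the alternatives, 5131 kept their side of the threshold, 16 of them with a change of sign but no call under either setting. A further 461 lost the call, 7 gained one (Tspan8 and Fzd5, both lower), 1 moved (Defa17, 10.5 points between picked and sorted shares with mean shares per well) and 4 turned: without centring Rpl41 went to −0.041, Hspa5 to −0.23 and Map1lc3b to −0.017, and with no filter Hspa5 went to −0.11. Centring, thinning and leaving out Paneth cell wells rich in goblet genes were chosen after seeing the data. For the 600 calls in sorted Paneth cell wells the count was 227 at a minimum of 200 CPM, 8107 with no filter, 294 with mean CPM per well, 1738 without centring, and 468 to 589 with 1 library left out. For the 79 picked calls it was 49 with a pseudocount of 5 CPM, 44 at 200 CPM, 159 with the rule at 10%, 47 with it at 2%, 245 with array weights, 126 without centring, 48 with thinning, 45 with thinning and no centring, and 45 to 86 with 1 library left out. For the 11 differences it was 5 with a pseudocount of 5 CPM, 7 with 100 CPM, 6 at 200 CPM, 0 with no filter, 7 with mean CPM per well, 5 without centring, 6 with thinning, 5 with thinning and no centring, and 4 to 12 with 1 library left out. For the 131 differences in level it was 207 with a pseudocount of 100 CPM, 22 with no filter, 258 with array weights, 86 with thinning and no centring, and 29 to 164 with 1 library left out. For the 320 differences from goblet wells it was 205 and 559 with pseudocounts of 5 and 100 CPM, 134 at 200 CPM, 3584 with no filter, 1417 without centring, 193 with thinning, and 238 to 320 with 1 library left out. Without the pairing by library (no replicate block) the counts were 502 sorted, 51 picked and 1 for the difference. The replicate numbers of the labels pair no picked library with a sorted one. The log2 ratio of transcripts per well over all libraries had no call in any setting. That of sorted libraries alone passed without the rule genes, whose removal lowers Paneth cell totals by the choice of wells. Over all libraries the ratio was 0.301 with the rule at 10% and 0.021 with libraries of 1 Paneth cell well. It ran from −0.375 to 0.087 with 1 library left out. The difference in genes per well ran from −314 to −275. Per spike-in molecule the ratio passed with the rule at 10% (0.829, exact permutation p = 0.0156), at 2000 transcripts per well (0.570, p = 0.0391) and with libraries of 1 Paneth cell well (0.656, p = 0.0273), and ran from 0.399 to 0.685 with 1 library left out, passing without sorted replicate 5 or 6. The difference of the Defa24 share, 16.4 points, ran from 14.5 to 19.7 with 1 library left out. With the rule at 2%, 9.15% of picked wells were Paneth cell wells. The causes were not tested. The limits are 64 wells, 9 libraries, and depth: a median Paneth cell well held 5158 transcripts, so low genes such as niche ligands were seen in few wells.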
